A study of Mus musculus with 9 samples.

Results

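The portal and adventitial fibroblast markers described here are 10 genes, Thy1, Entpd2, Cd34, Dpt, Pi16, Clec3b, Ly6a, Col15a1, Gsn and Il33, out of 24453 genes measured by RNA sequencing in mouse liver cells. They were taken from the table by gene symbol, and all 10 were found and were among the 13651 genes kept for testing. The 9 libraries fall into 3 groups of 3. HSCs are quiescent hepatic stellate cells of normal wild-type livers, isolated by density gradient. CCl4-fib are activated fibroblasts of Col1a2-GFP Tg mice given carbon tetrachloride (CCl4), a hepatotoxin, by intraperitoneal injection 2 times a week for 8 weeks. NASH-fib are activated fibroblasts of Col1a2-GFP Tg mice that also lacked the melanocortin 4 receptor (MC4R-KO), put on a Western diet (WD) at 8 weeks of age for 20 weeks, which gives nonalcoholic steatohepatitis (NASH). Wild-type and MC4R-KO mice had the C57BL/6J background, and the age of the HSC and CCl4-fib mice is not given in the sources used here.

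Both fibroblast groups were sorted as 7-AAD- CD45- GFP+ cells, with GFP driven by the Col1a2 collagen promoter, so a fibroblast without activity of that promoter would not have been collected. HSCs carried no GFP and were not sorted. In either comparison with HSCs, injury, transgene and way of isolation therefore cannot be told apart. In that of NASH-fib with HSCs, neither can the KO genotype and the diet. Likewise, the KO genotype, the diet and the type of injury cannot be told apart between NASH-fib and CCl4-fib. Age, known for NASH-fib only, may differ between any of the groups. Each library came from cells pooled from 3 to 5 mice, so the spread between libraries is a spread between pools. In pooled bulk RNA, fewer cells of a type and less RNA per cell cannot be told apart.

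Portal fibroblasts lie in the connective tissue around the bile ducts and portal vessels, and adventitial fibroblasts sheathe larger vessels in many organs. Hepatic stellate cells, the vitamin A-storing pericytes of the sinusoids, are the other main source of collagen-producing cells in the injured liver. THY1 on the cell surface and the ecto-ATPase ENTPD2 are classical marks of portal fibroblasts, whereas CD34, PI16, DPT, CLEC3B and LY6A mark fibroblasts of the adventitia, and COL15A1 is a basement membrane zone collagen.

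The files hold a normalised value per gene and library, scaled so that every library sums to about 4471992. The reads behind the values numbered 3071070 to 3825522 per library for HSCs, 4687349 to 5634273 for CCl4-fib and 3289758 to 5021156 for NASH-fib. A count of 3 reads, taken as the floor of detection, is worth a value of 2.38 to 4.37. Mc4r, the gene targeted in NASH-fib, had 0 reads in each library of HSCs and CCl4-fib and 4, 13 and 0 reads in NASH-fib, so it could not check the genotype labels. Lrat, the retinol-esterifying enzyme of quiescent stellate cells, had 10234, 14894 and 7070 for HSCs against at most 347.9 for CCl4-fib and 458.1 for NASH-fib.

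The promoters of 4 markers are printed because these genes span the responses described here. Entpd2 is the marker called between the fibroblast groups, Dpt and Cd34 rose in both of them with little spread in CCl4-fib, and Il33 was already high in HSCs. The sequences are the 250 bases before the gene start in RefSeq (GRCm38.p6, the same build as mm10), 5′ to 3′ on the coding strand, which is the plus strand in each case. Capitals mark the motifs found on either strand.
Entpd2 (chr2:25395624-25395873): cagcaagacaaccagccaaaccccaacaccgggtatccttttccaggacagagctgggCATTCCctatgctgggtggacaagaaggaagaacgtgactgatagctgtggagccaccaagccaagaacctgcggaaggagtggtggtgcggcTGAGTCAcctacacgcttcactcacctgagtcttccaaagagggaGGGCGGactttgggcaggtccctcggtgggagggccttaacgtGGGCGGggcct
Dpt (chr1:164796413-164796662): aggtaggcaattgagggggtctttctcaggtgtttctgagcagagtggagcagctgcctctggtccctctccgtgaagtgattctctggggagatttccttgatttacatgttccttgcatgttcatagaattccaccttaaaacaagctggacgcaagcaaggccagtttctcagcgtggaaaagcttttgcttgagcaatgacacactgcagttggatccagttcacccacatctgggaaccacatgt
Cd34 (chr1:194938571-194938820): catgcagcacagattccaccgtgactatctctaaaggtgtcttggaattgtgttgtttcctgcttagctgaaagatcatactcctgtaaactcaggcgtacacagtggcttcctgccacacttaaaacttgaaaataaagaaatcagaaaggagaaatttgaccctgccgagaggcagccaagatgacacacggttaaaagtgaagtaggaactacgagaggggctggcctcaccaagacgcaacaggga
Il33 (chr19:29924863-29925112): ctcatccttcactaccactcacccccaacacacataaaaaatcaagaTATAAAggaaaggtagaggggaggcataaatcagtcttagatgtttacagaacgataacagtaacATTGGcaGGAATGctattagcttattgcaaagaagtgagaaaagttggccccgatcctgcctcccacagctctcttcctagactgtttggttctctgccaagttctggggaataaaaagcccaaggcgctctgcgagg
The motifs searched on both strands were TATAAA (core of the TATA box), GGGCGG (GC box), TGANTCA (the AP-1 motif) and CAGACA (the SMAD motif). The search also covered GGAATG (the TEAD motif) and CCAAT (the CCAAT box). Entpd2 carried GC boxes 54 and 11 bases before its start, the AP-1 motif 99 bases and the TEAD motif, on the other strand, 192 bases before it. Il33 carried the TATA box core 203 bases, the CCAAT box, on the other strand, 138 bases and the TEAD motif 131 bases before its start. None of these motifs was found in the windows of Cd34 and Dpt, and the Dpt window ends 69 bases before the start that the deposited table lists. Of all 32851 promoter windows of this length, 32.7% held the GC box, 12.6% the TEAD motif, 6.75% the AP-1 motif, 12.4% the TATA box core, 17.1% the SMAD motif and 33.8% the CCAAT box. Among the 7 markers with an entry (Entpd2, Cd34, Dpt, Pi16, Col15a1, Gsn and Il33), the GC box, the TEAD motif and the CCAAT box were each found in 2, the AP-1 motif and the TATA box core in 1 and the SMAD motif in 0. The GC content was 59.2% for Entpd2, 48.8% for Dpt, 46.4% for Cd34 and 45.2% for Il33, beside a median of 52.4% over all windows. Thy1, Clec3b and Ly6a had no entry.

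All but 2 of the markers were far higher in fibroblasts of either kind than in HSCs, and Ly6a and Il33 were not called in either comparison with HSCs. In CCl4-fib against HSCs, 8 of 10 markers were called higher and 0 lower, where 16.2% of all tested genes were called higher and 11.7% lower. A call is an absolute log2 fold change of at least 1 with an adjusted p under 0.05 by limma with Benjamini-Hochberg adjustment over all tested genes. The median log2 fold change was 5.21 over the markers and 0.18 over all tested genes. In NASH-fib against HSCs, the same 8 markers were called higher and 0 lower, where 8.23% of tested genes were called higher and 4.3% lower, and the medians were 4.56 and -0.02. The comparisons share the HSC libraries and are not independent of each other. In NASH-fib against CCl4-fib, 0 markers were called higher and 1, Entpd2, lower, where 4.97% of tested genes were called higher and 5.66% lower, with medians of -0.36 and -0.11.

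On their HSC libraries alone, 5 of the 8 markers called higher (Thy1, Entpd2, Pi16, Clec3b and Col15a1) would have failed the minimum count, so these entered the test through the fibroblast libraries and the counts above describe the list without supporting it. An exact permutation test of 3 against 3 libraries cannot give a p below 0.1, which any gene with fully separated groups reaches. The CCl4-fib libraries lay wholly above the HSC libraries for 9 markers, where 27.8% of tested genes did so, and wholly below them for 0, where 20.9% did. The NASH-fib libraries lay wholly above HSCs for 8, where 12.7% of tested genes did so, and wholly below for 0, where 11.6% did. NASH-fib lay wholly below CCl4-fib for 3 markers (Entpd2, Col15a1 and Il33), where 22% of tested genes did, and wholly above it for 0, where 17.1% did.

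**Figure D1:**
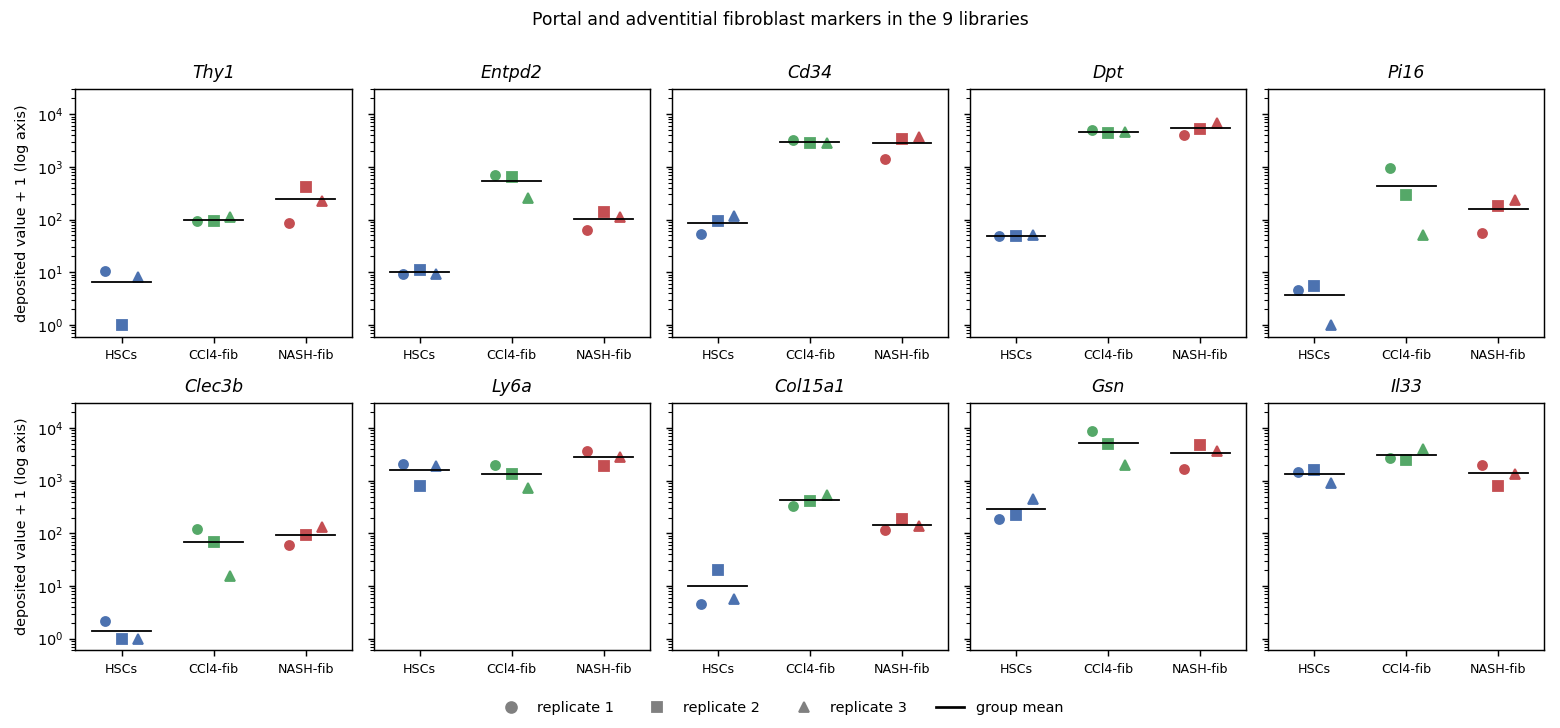
Deposited normalised value plus 1 on a log axis for each of the 10 markers, with 1 point per library (3 per group) and a line at the group mean. For 8 markers all fibroblast points lie above all HSC points, Ly6a overlaps among the 3 groups, and Entpd2, Col15a1 and Il33 lie lower in each NASH-fib library than in any CCl4-fib library.

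Among the surface proteins, Thy1 encodes a GPI-anchored glycoprotein of the immunoglobulin superfamily (NM_009382, chr9:44043384-44048579, exonic reads). Its values were 9.35, 0 and 7.17 for HSCs, 92.9, 91.0 and 108.8 for CCl4-fib and 84.3, 415.0 and 223.1 for NASH-fib. All 6 fibroblast libraries lay above the HSC libraries, of which the highest held 8 reads, and NASH-fib spread around the narrow band of CCl4-fib. The group means were 5.51 ± 4.89, 97.5 ± 9.76 and 240.8 ± 166.1 (SD, n = 3 each). The log2 fold change was 4.48 (SE 0.87, limma adjusted p = 0.00354) for CCl4-fib and 5.51 (SE 0.87, adjusted p = 0.0018) for NASH-fib, each against HSCs. The 2 kinds of fibroblasts did not differ beyond their spread, the difference NASH-fib minus CCl4-fib being 1.02 with a 95% interval from -0.90 to 2.95. Thy1 was 4.92 times higher in the highest than in the lowest NASH-fib library, the widest ratio among the 10 markers in that group.

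Cd34, a sialomucin of haematopoietic progenitors, endothelium and adventitial fibroblasts (NM_001111059, chr1:194938821-194961292), had values of 52.6, 93.2 and 114.8 for HSCs, 3219, 2811 and 2822 for CCl4-fib and 1384, 3416 and 3644 for NASH-fib. Both fibroblast groups lay wholly above HSCs, and NASH-fib replicate 1 was the lowest of the 6 fibroblast libraries. The mean rose from 86.9 ± 31.6 for HSCs to 2951 ± 232.2 for CCl4-fib and 2815 ± 1245 for NASH-fib (SD, n = 3), log2 fold changes of 5.14 (SE 0.44, limma adjusted p = 3.81e-05) and 4.95 (adjusted p = 6.34e-05). NASH-fib and CCl4-fib overlapped, with a difference of -0.19 (95% interval -1.16 to 0.78) on the log2 scale. The antisense gene Gm16897 shares 148 exonic bases with Cd34 and reads of either strand were counted, so reads of the pair can be mixed. Gm16897 itself rose by 4.34 in CCl4-fib (limma adjusted p = 0.000455) and 3.83 in NASH-fib (adjusted p = 0.00149) against HSCs, from a mean of 10.2 to 209.6 and 170.1. Its NASH-fib call was lost with the number that begins each library label as a term in the fit (limma adjusted p = 0.0625).

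Endothelial cells also express Cd34, and some of them express Ly6a, which is described next. The summed value of 10 endothelial marker genes was 6372 to 12853 for HSCs, 206.1 to 311.9 for CCl4-fib and 1192 to 3715 for NASH-fib. The part of endothelial cells in the Cd34 and Ly6a values was not tested.

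Ly6a (Sca-1), a GPI-anchored surface protein of progenitor cells, some endothelium and adventitial fibroblasts (NM_010738, chr15:74994877-74998031, minus strand), behaved unlike the other surface markers. It had 2087, 798.0 and 1906 for HSCs, 2029, 1349 and 711.7 for CCl4-fib and 3621, 1935 and 2867 for NASH-fib. The 3 groups overlapped, and the lowest NASH-fib library lay between the 2 highest HSC libraries and below the highest CCl4-fib library. Neither CCl4-fib (log2 fold change -0.23, 95% interval -1.33 to 0.86, limma adjusted p = 0.749) nor NASH-fib (0.89, -0.21 to 1.98, adjusted p = 0.348) passed the test against HSCs. The difference NASH-fib minus CCl4-fib was 1.12 (95% interval 0.03 to 2.21, limma adjusted p = 0.164). Ly6a lies in a cluster of similar genes, and 18.4% of the 36-base stretches of its transcript also occur in Ly6c1, Ly6i or I830127L07Rik, so part of its reads is uncertain.

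Entpd2 encodes a cell-surface enzyme that splits extracellular ATP to ADP (NM_009849, chr2:25395874-25401323, the gene whose promoter is printed first above). Its values were 8.18, 10.2 and 8.37 for HSCs, where each library had 7 reads, 708.0, 643.0 and 258.6 for CCl4-fib and 62.5, 138.1 and 110.1 for NASH-fib. The 3 groups were fully separated, with each NASH-fib library between HSCs and CCl4-fib. The mean was 8.91 ± 1.11 for HSCs, 536.5 ± 242.9 for CCl4-fib and 103.5 ± 38.2 for NASH-fib (SD, n = 3). Against HSCs the log2 fold change was 5.64 (SE 0.50, limma adjusted p = 4.33e-05) in CCl4-fib and 3.33 (SE 0.50, adjusted p = 0.00132) in NASH-fib. NASH-fib had 0.193 times the mean of CCl4-fib, a log2 fold change of -2.31 (SE 0.50, 95% interval -3.41 to -1.21, limma adjusted p = 0.0212).

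That call did not hold in every setting. With the number that begins each library label as a term in the fit it was -2.19 with a limma adjusted p of 0.0793. Without CCl4-fib replicate 1, CCl4-fib replicate 2, NASH-fib replicate 1 or NASH-fib replicate 3 the log2 fold change was -2.04, -2.11, -1.98 and -2.39, with limma adjusted p of 0.0837, 0.102, 0.0521 and 0.0636. An isoform of Npdc1, the neighbouring gene on the same strand, shares 612 exonic bases with Entpd2 in GENCODE, and 30.4% of the 36-base stretches of the Entpd2 transcript occur in Npdc1 as well. The Npdc1 entry that was counted starts at 25403050, past the end of Entpd2. Npdc1, a membrane protein of neural tissue, had 42.1, 68.4 and 56.2 for HSCs, 230.2, 302.8 and 188.9 for CCl4-fib and 65.3, 86.4 and 66.8 for NASH-fib. It too was lower in NASH-fib than in CCl4-fib, with a log2 fold change of -1.70 (limma adjusted p = 0.0237). That call was lost with the label number as a term, without CCl4-fib replicate 1 or 2 and without NASH-fib replicate 1 or 3. Whether Npdc1 transcripts carry part of the Entpd2 difference was not tested.

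Of the matrix genes, Dpt encodes dermatopontin, a small protein that binds decorin and collagen fibrils (NM_019759, chr1:164796732-164824266). It had 47.9, 48.1 and 50.2 for HSCs, 4938, 4409 and 4646 for CCl4-fib and 4011, 5262 and 6941 for NASH-fib. The HSC and CCl4-fib libraries each agreed closely among themselves, the highest being 1.05 and 1.12 times the lowest, and all fibroblast libraries stood far above all HSC libraries. The mean of 48.7 ± 1.28 in HSCs was 95.7 times lower than the 4665 ± 265.2 of CCl4-fib and 110.9 times lower than the 5405 ± 1470 of NASH-fib (SD, n = 3). The log2 fold changes were 6.55 (SE 0.30, limma adjusted p = 5.48e-06) and 6.73 (SE 0.30, adjusted p = 4.46e-06), the largest fitted values of the markers in each comparison. This rank depends on the pseudocount, because Pi16 and Clec3b were at the floor in HSCs. From pooled reads, Pi16 was 180.4 times and Clec3b 167.3 times higher in CCl4-fib than in HSCs. In NASH-fib these ratios were 65.3 and 230.8, and all 4 have wide intervals, given below. NASH-fib minus CCl4-fib was 0.18 (95% interval -0.49 to 0.85).

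Col15a1 encodes the chain of type XV collagen, which ties basement membranes to the fibrils beneath (NM_009928, chr4:47208012-47313165). Its values were 3.51, 18.9 and 4.78 for HSCs, 323.0, 402.3 and 543.8 for CCl4-fib and 115.6, 187.0 and 134.6 for NASH-fib. As with Entpd2, the groups did not overlap and NASH-fib was intermediate. The log2 fold change against HSCs was 5.69 (SE 0.57, limma adjusted p = 7.9e-05) in CCl4-fib, from a mean of 9.07 ± 8.56 to 423.0 ± 111.8, and 4.16 (SE 0.57, adjusted p = 0.000755) in NASH-fib, to 145.7 ± 37.0 (SD, n = 3). NASH-fib minus CCl4-fib was -1.53 (95% interval -2.78 to -0.27, limma adjusted p = 0.109), which missed the threshold. It passed in a fit of these 2 groups alone (adjusted p = 0.0393) and without HSCs replicate 2, the highest HSC library (limma adjusted p = 0.0349).

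Pi16, a peptidase inhibitor that marks adventitial fibroblasts across organs (NM_023734, chr17:29318882-29328902), had values of 3.51, 4.37 and 0 in HSCs, which is 3, 3 and 0 reads. It had 948.5, 287.5 and 49.6 for CCl4-fib and 55.7, 177.2 and 230.0 for NASH-fib. HSCs were at the floor, every fibroblast library was above it, and CCl4-fib replicate 1 was 19.1 times CCl4-fib replicate 3, the widest ratio between libraries of a fibroblast group for any marker. From the pooled reads, 1585 in CCl4-fib and 6 in HSCs, the ratio of rates was 180.4 (95% exact interval 82.7 to 492.2), and from 474 reads in NASH-fib it was 65.3 (29.8 to 178.9). These intervals cover counting error only. The fitted log2 fold changes, which depend on the pseudocount of 1, were 6.38 (SE 1.04, limma adjusted p = 0.00141) and 5.52 (SE 1.04, adjusted p = 0.00526). With the label number as a term, the NASH-fib call was lost (5.98, limma adjusted p = 0.0627). NASH-fib minus CCl4-fib was -0.86 with a 95% interval from -3.17 to 1.45, and the sign turned to 0.13 without CCl4-fib replicate 1.

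Clec3b encodes tetranectin, a secreted plasminogen-binding lectin (NM_011606, chr9:123150946-123157432), and a single read was counted in the HSC libraries. Its values were 1.17, 0 and 0 for HSCs, 120.6, 66.3 and 14.3 for CCl4-fib and 58.5, 92.6 and 129.7 for NASH-fib. All 6 fibroblast libraries were above all HSC libraries and the fibroblast groups overlapped. The ratio of pooled rates was 167.3 (95% exact interval 29.7 to 6634, from 245 reads) for CCl4-fib and 230.8 (41.1 to 9147, from 279 reads) for NASH-fib, for counting error only. The fitted log2 fold changes were 5.27 (SE 0.78, limma adjusted p = 0.000788) and 6.12 (SE 0.78, adjusted p = 0.000503), and NASH-fib minus CCl4-fib was 0.85 (95% interval -0.88 to 2.57).

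Gsn encodes gelsolin, which severs and caps actin filaments in the cytoplasm and has a secreted plasma form (NM_001206367, chr2:35256359-35307902). It had 184.7, 219.9 and 456.7 for HSCs, 8760, 5020 and 1958 for CCl4-fib and 1637, 4806 and 3594 for NASH-fib. Both fibroblast groups lay above HSCs and overlapped each other, with a 4.47-fold range within CCl4-fib. The mean was 287.1 ± 147.9 for HSCs, 5246 ± 3407 for CCl4-fib and 3346 ± 1599 for NASH-fib (SD, n = 3), log2 fold changes of 4.05 (SE 0.60, limma adjusted p = 0.000798) and 3.52 (SE 0.60, adjusted p = 0.00293) against HSCs. The NASH-fib call was lost with the label number as a term (3.60, limma adjusted p = 0.0545). NASH-fib minus CCl4-fib was -0.54 (95% interval -1.87 to 0.80).

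Il33 encodes a nuclear cytokine of the IL-1 family that is released from damaged cells (NM_133775, chr19:29925114-29960715). It was abundant in each group, with 1434, 1628 and 905.0 for HSCs, 2640, 2489 and 3927 for CCl4-fib and 2016, 790.0 and 1348 for NASH-fib. CCl4-fib was wholly above both other groups, and NASH-fib overlapped HSCs. The mean of CCl4-fib, 3018 ± 790.4, was 2.28 times that of HSCs, 1322 ± 374.2 (SD, n = 3), a log2 fold change of 1.20 (95% interval 0.29 to 2.11) that missed the threshold with a limma adjusted p of 0.0513. It passed without NASH-fib replicate 1 (adjusted p = 0.0254 by limma) and without NASH-fib replicate 2 (0.0381), libraries that enter only the shared estimate of spread. NASH-fib, at 1385 ± 613.8, differed from HSCs by 0.01 (95% interval -0.90 to 0.92, limma adjusted p = 0.997). NASH-fib minus CCl4-fib was -1.19 (95% interval -2.11 to -0.28, limma adjusted p = 0.0896).

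**Figure D2:**
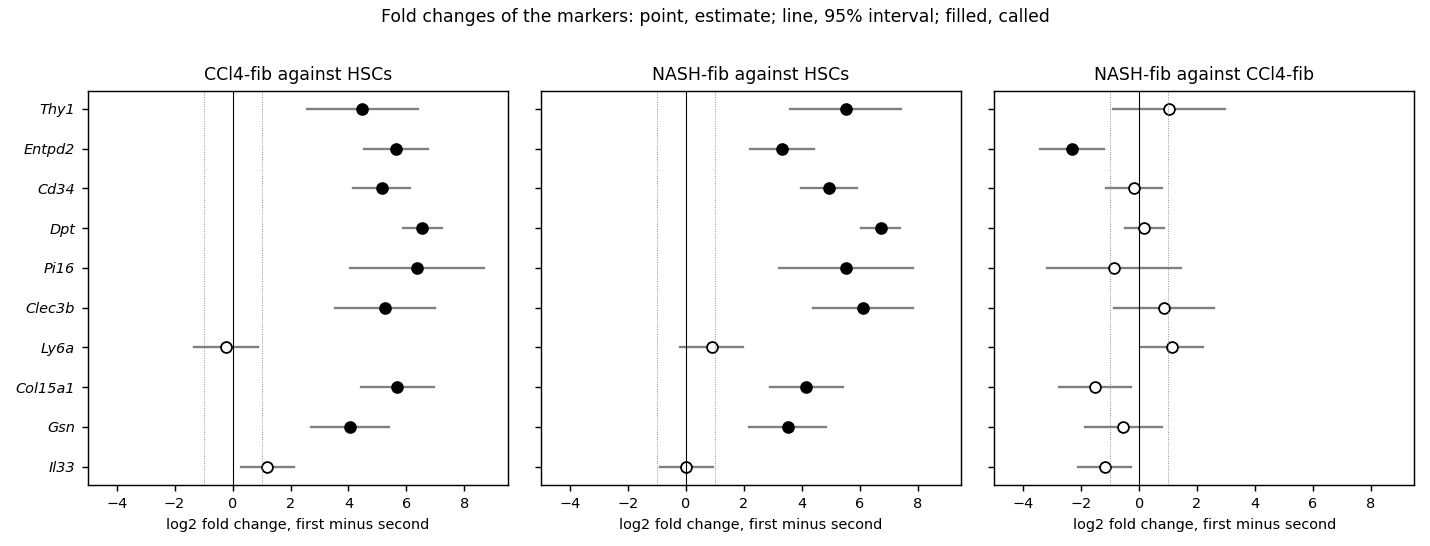
Log2 fold change of each marker (points) with its 95% interval (lines) in the 3 comparisons, from the limma fit on log2(value + 1). The 8 markers called against HSCs sit between 3.33 and 6.73, Ly6a and Il33 between -0.23 and 1.20 there, and between the fibroblast groups Entpd2 alone is called, at -2.31.

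The order of the markers by level, taken per kilobase of exonic length so that genes can be compared, was not the same in the groups. In HSCs, Ly6a led with a mean value per kilobase of 1655, followed by Il33 with 524.0 and Gsn with 109.6, and the 5 lowest, Entpd2 to Clec3b, had 4.63 or less. In CCl4-fib, Dpt led with 2862, followed by Gsn with 2002, Ly6a with 1413, Il33 with 1196 and Cd34 with 1130. In NASH-fib the order was Dpt with 3316, Ly6a with 2910, Gsn with 1277, Cd34 with 1078 and Il33 with 548.6. Thy1 was last in CCl4-fib with 56.4 per kilobase and sixth in NASH-fib with 139.3, while Entpd2 was sixth in CCl4-fib with 278.6 and ninth in NASH-fib with 53.8.

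Ly6a and Il33 together held 81.4% to 91.9% of the summed value of the 10 markers in the HSC libraries, 19.6% to 30.8% in CCl4-fib and 15.8% to 43.2% in NASH-fib. The sum itself was 2821 to 3832 for HSCs, 15040 to 23779 for CCl4-fib and 13046 to 19222 for NASH-fib.

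Within the groups, single libraries carried much of the spread. NASH-fib replicate 1 was the lowest NASH-fib library for 8 markers and the highest for the other two, Ly6a and Il33. CCl4-fib replicate 3 was the lowest of its group for Entpd2, Pi16, Clec3b, Ly6a and Gsn, and the highest for Thy1, Col15a1 and Il33. CCl4-fib replicate 1 was the highest for 7 markers, and its summed value of 8 smooth muscle and mural genes was 27358, beside 5511 and 7098 in CCl4-fib replicates 2 and 3. The part of those cells in its marker values was not tested.

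The library labels begin with a number pair that some groups share, such as 11-3 for HSCs replicate 2, CCl4-fib replicate 1 and NASH-fib replicate 1, and what the pair stands for is not stated. Within 11-3, all 10 markers were higher in CCl4-fib and in NASH-fib than in HSCs, with 1 library each. Within 11-4 (HSCs replicate 3 and CCl4-fib replicate 2) 9 were higher in CCl4-fib and Ly6a was lower. For NASH-fib against CCl4-fib the markers fell into 2 kinds. Entpd2, Col15a1 and Il33 were lower and Ly6a higher in NASH-fib both within 11-3 and within 11-7, which holds CCl4-fib replicate 3 and NASH-fib replicates 2 and 3. Thy1, Cd34, Dpt, Pi16, Clec3b and Gsn were lower within 11-3 and higher within 11-7. Within 11-3 each group has 1 library, and within 11-7 CCl4-fib has 1. The number pair and the single libraries therefore cannot be told apart as the source of these 6 changes of sign.

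Several markers have close relatives or partners, and 15 such genes were examined, 11 of which had enough reads to test. In CCl4-fib against HSCs 4 of the 11 passed as higher and 1 as lower (16.2% and 11.7% of all tested genes), and in NASH-fib against HSCs 5 as higher and 2 as lower (8.23% and 4.3%). In NASH-fib against CCl4-fib 1 passed as higher and 0 as lower, near the 4.97% and 5.66% of all tested genes. The ectonucleotidases, which break down extracellular nucleotides in sequence, went separate ways. Entpd1 (CD39, NM_009848, chr19:40659770-40741602), which takes ATP to AMP, had 72.5, 103.4 and 220.0 for HSCs, 258.0, 76.6 and 66.8 for CCl4-fib and 384.7, 784.6 and 783.3 for NASH-fib. NASH-fib lay wholly above the other groups, which overlapped, and the log2 fold change over CCl4-fib was 2.48 (SE 0.60, limma adjusted p = 0.0289), opposite in sign to that of Entpd2. That call was lost without CCl4-fib replicate 2, CCl4-fib replicate 3, NASH-fib replicate 2 or NASH-fib replicate 3, with a replicate block and with the label number as a term, with limma adjusted p of up to 0.123 over all settings tried.

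Nt5e (CD73, NM_011851, chr9:88327609-88372089), which makes adenosine from AMP, had 710.8, 997.5 and 426.8 for HSCs, 3.97, 29.8 and 17.2 for CCl4-fib and 12.2, 9.80 and 41.3 for NASH-fib. Every fibroblast library was far below every HSC library. The log2 fold change against HSCs was -5.58 (SE 0.75, limma adjusted p = 0.000433) in CCl4-fib and -5.21 (SE 0.75, adjusted p = 0.00103) in NASH-fib.

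The relatives of Ly6a did not all share its pattern. Ly6c1, which shares sequence with Ly6a, rose by 3.81 (limma adjusted p = 0.00159) in CCl4-fib and 4.65 (adjusted p = 0.000777) in NASH-fib against HSCs, with means of 27.2 ± 15.7, 416.7 ± 279.2 and 673.6 ± 310.1 (SD, n = 3) in HSCs, CCl4-fib and NASH-fib. Ly6c2 rose by 3.45 (limma adjusted p = 0.0103) in NASH-fib and had 1.47 (adjusted p = 0.163) in CCl4-fib against HSCs. With the label number as a term the NASH-fib call of Ly6c2 was lost (limma adjusted p = 0.0749). Col18a1, the collagen closest to Col15a1, rose in both, by 3.17 (limma adjusted p = 0.00337) and 2.36 (adjusted p = 0.0273), and so did Crispld2, a secreted relative of Pi16, by 3.39 and 3.43. The NASH-fib call of Col18a1 was lost in 7 of 19 settings. These were the 2 groups alone, the replicate block, the label number as a term and the omission of HSCs replicate 1 or 2 or NASH-fib replicate 2 or 3. That of Crispld2 was lost with the label number as a term (limma adjusted p = 0.105). Capg, an actin-capping relative of gelsolin, rose by 3.20 in CCl4-fib against HSCs (limma adjusted p = 0.0195, lost without HSCs replicate 1 or 2 and without CCl4-fib replicate 1 or 3) and had 1.09 (adjusted p = 0.555) in NASH-fib, and the difference between the fibroblast groups, -2.11, did not pass (adjusted p = 0.138). Podxl, a sialomucin related to Cd34, fell by 1.95 on the log2 scale in NASH-fib against HSCs (limma adjusted p = 0.0455), a call lost in 11 of 19 settings, among them the omission of HSCs replicate 1 or 3, of CCl4-fib replicate 2 or 3 and of NASH-fib replicate 2 or 3. Il1rl1, the receptor of IL-33, had 0 reads in every HSC and NASH-fib library and 2, 32 and 7 reads in CCl4-fib, too few to test.

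**Figure D3:**
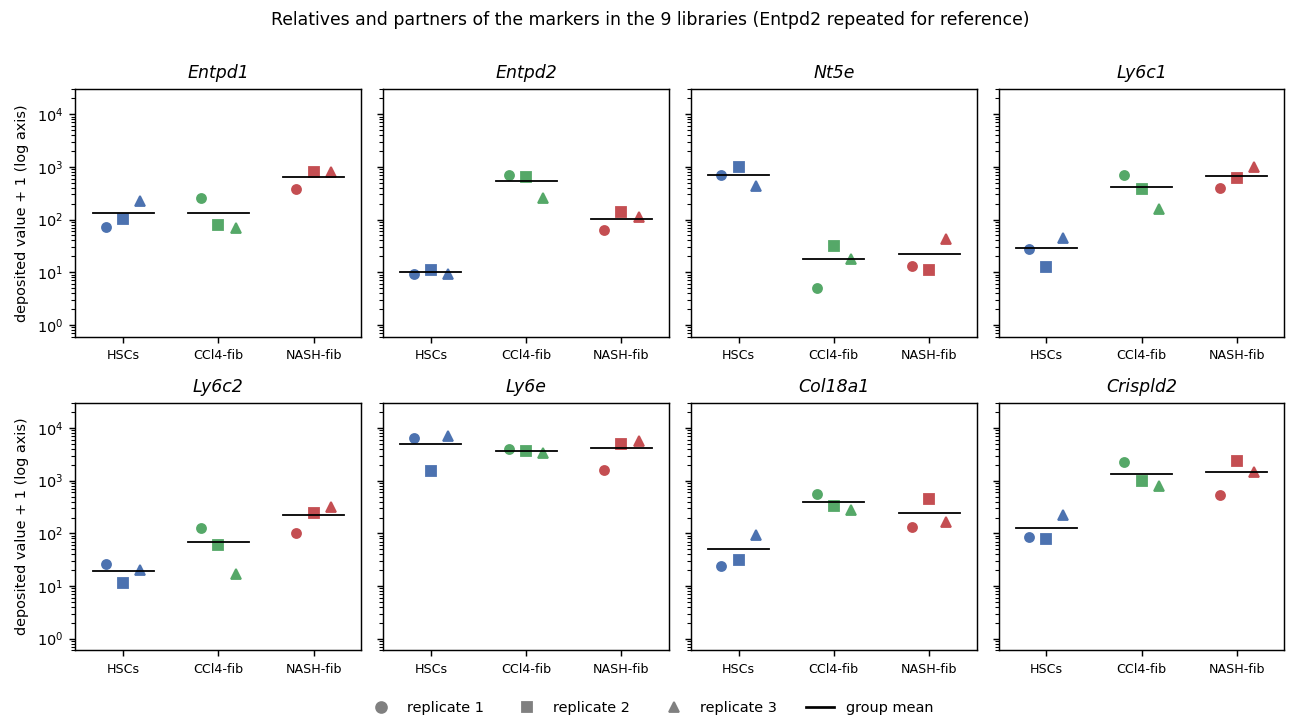
Deposited normalised value plus 1 on a log axis for 7 relatives of the markers, with Entpd2 beside them, 1 point per library and a line at the group mean. Entpd1 is highest in NASH-fib where Entpd2 is highest in CCl4-fib, and Nt5e lies at 427 or more in each HSC library and at 41.3 or less in each fibroblast library.

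A wider list of 30 other genes of portal and adventitial fibroblasts was counted in the same way. In CCl4-fib against HSCs 23 passed as higher and 1 as lower, and in NASH-fib against HSCs 20 higher and 0 lower, with median log2 fold changes of 4.03 and 3.00. Of all tested genes, 16.2% passed as higher and 11.7% as lower in the first comparison, and 8.23% and 4.3% in the second. On their HSC libraries alone 8 of the 30 (Mfap4, Mfap5, Gli1, Slit2, Penk, Scara5, Has1 and Ackr3) would have failed the minimum count, and 7 of these are among the genes called higher in each comparison, so the counts and medians describe the list without supporting it. The largest rises in CCl4-fib were those of Mfap4 with 9.89, Mfap5 with 7.50, Fbln2 with 6.69 and Scara5 with 5.99, and in NASH-fib those of Mfap4 with 8.19, Scara5 with 7.66, Mfap5 with 7.27 and Penk with 7.15, each on the log2 scale against HSCs. MFAP4, MFAP5 and fibulin 2 (Fbln2) belong to the elastic fibre and its microfibrils, Scara5 is a ferritin receptor and Penk encodes the precursor of enkephalin. Mfap4, Scara5 and Penk had 11 reads or fewer in every HSC library, so their fitted values depend on the pseudocount.

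Between the fibroblast groups, 2 of the 30 genes were called higher in NASH-fib and 6 lower, where 4.97% and 5.66% of all tested genes were, with a median of -0.49. Dpp4, a surface peptidase found with PI16 on adventitial fibroblasts, had 867.4, 1124 and 934.9 for HSCs, 462.7, 552.0 and 362.5 for CCl4-fib and 5145, 2381 and 3927 for NASH-fib. The 3 groups were fully separated, with CCl4-fib below HSCs and NASH-fib above them. NASH-fib minus CCl4-fib was 3.00 (SE 0.36, limma adjusted p = 0.00477), a call kept in all 19 alternative settings, and NASH-fib rose over HSCs by 1.91 (adjusted p = 0.00489). The fall of CCl4-fib below HSCs, -1.10 (limma adjusted p = 0.0423), was lost in 11 of 19 settings, among them the omission of any 1 library of either group.

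Sema3c, a secreted guidance protein, was the other gene higher in NASH-fib, with 101.7, 99.0 and 27.5 for HSCs, 536.6, 567.3 and 298.6 for CCl4-fib and 2757, 1740 and 2116 for NASH-fib. The groups were fully separated, and NASH-fib minus CCl4-fib was 2.27 (SE 0.52, limma adjusted p = 0.0241), a call lost without any 1 CCl4-fib library and without NASH-fib replicate 1 or 3.

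Of the genes lower in NASH-fib, the largest changes were those of Serpinf1 (PEDF, a secreted serpin), Loxl1 (a crosslinker of elastin), Fbln2 and Cd55 (a surface regulator of complement), with log2 fold changes of -3.15, -2.87, -2.38 and -2.30. Loxl1 had 981.0, 1482 and 1025 for CCl4-fib and 164.5, 196.8 and 117.0 for NASH-fib (limma adjusted p = 0.00567), and Fbln2 had 4019, 3521 and 2999 against 570.9, 733.9 and 714.5 (adjusted p = 0.00779). Both kept the call in all 19 settings. Serpinf1 (limma adjusted p = 0.0314) and Cd55 (adjusted p = 0.0207) lost it in 7 and 5 settings, among them the omission of CCl4-fib replicate 1, of CCl4-fib replicate 2 and of NASH-fib replicate 3 for both, and of CCl4-fib replicate 3 and of NASH-fib replicate 1 for Serpinf1. The 2 further genes called lower were Cd248 with -1.91 (limma adjusted p = 0.0344) and Fbn1 with -1.03 (adjusted p = 0.0484), named after their values were seen, and these calls were lost in 7 and 16 settings, including every omission of a CCl4-fib library.

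**Figure D4:**
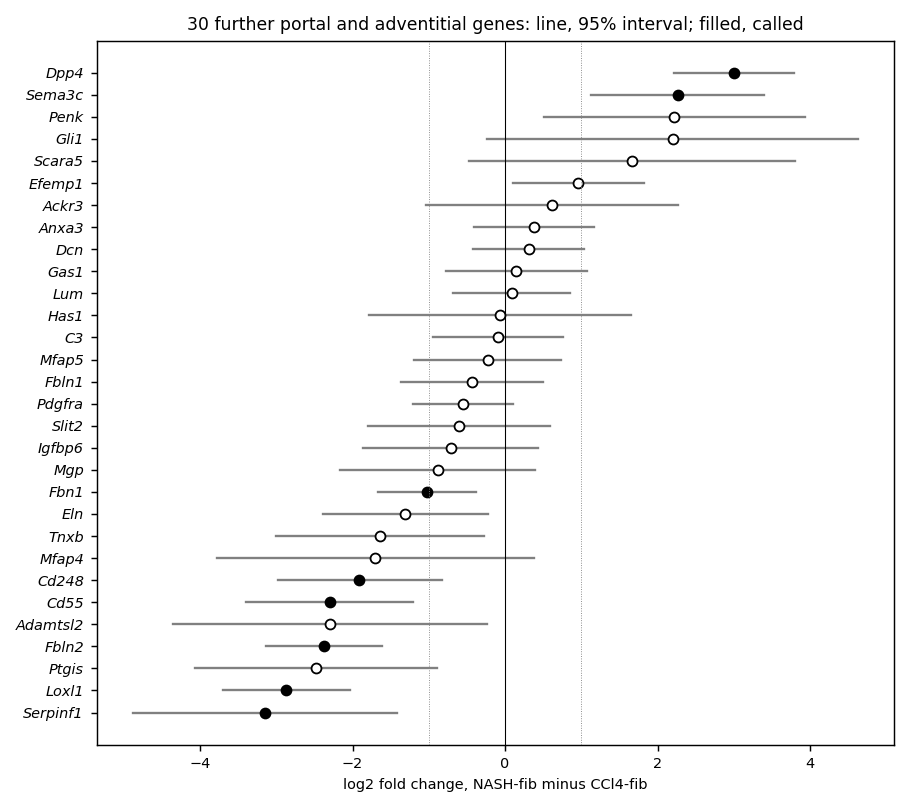
Log2 fold change of NASH-fib minus CCl4-fib (points) with its 95% interval (lines) for the 30 further genes, filled where called and with dotted lines at a change of 1 in either direction. Dpp4 at 3.00 and Sema3c at 2.27 are the filled points on the right, and 6 filled points from Fbn1 at -1.03 to Serpinf1 at -3.15 are on the left.

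Marker lists of other cell types moved along with the groups, and their part in the results for the 10 markers was not tested. The summed value of 8 mesothelial genes was 652.4 to 1029 for HSCs, 17130 to 24610 for CCl4-fib and 26134 to 32699 for NASH-fib. Against HSCs, 8 of 8 were called higher in each fibroblast group. The NASH-fib libraries had 21261, 11014 and 13786 of Gpm6a alone, beside 7605, 6733 and 6053 among the CCl4-fib libraries. When NASH-fib was compared with CCl4-fib, 0 of the 8 genes were called higher and 1, Wt1, lower, with a median log2 fold change of -0.05. NASH-fib lay wholly above CCl4-fib for 2 of them and wholly below it for 3, so the higher NASH-fib sum was not shared by the whole list. The 7 cholangiocyte genes summed to 72.5 to 225.7 in HSCs, 3488 to 4783 in CCl4-fib and 6088 to 11855 in NASH-fib. Most of the NASH-fib sum was Spp1, which is also on the activated fibroblast list. Without Spp1 the sums were 39.7 to 69.9, 1373 to 3257 and 1126 to 1291, so that NASH-fib lay below CCl4-fib. Most of this CCl4-fib remainder was Krt19, with 2174, 2699 and 770.9, beside 53.0, 469.4 and 347.9 for NASH-fib. Of the 6 cholangiocyte genes tested, 2 (Epcam and Cftr) were called higher in NASH-fib than in CCl4-fib and 0 lower. Of all tested genes 4.97% and 5.66% were. NASH-fib lay wholly above CCl4-fib for 4 of the 6 and wholly below it for 1, where 17.1% and 22% of all tested genes did. The lower sum was thus not shared by the whole list. Krt19 is on both the mesothelial and the cholangiocyte list. The 10 quiescent stellate cell genes summed to 36464 to 48079 for HSCs, 4513 to 7696 for CCl4-fib and 2420 to 5303 for NASH-fib, and 8 activated fibroblast genes to 6574 to 12238, 46841 to 55091 and 28744 to 38493. The 8 smooth muscle and mural genes summed to 25923 to 41910, 5511 to 27358 and 27257 to 41304, most of it Rgs5 and Abcc9 in HSCs. Without these, the other 6 summed to 1293 to 1467, 3001 to 13216 and 3215 to 19669. Myh11, Cnn1, Actg2 and Notch3, named after their values were seen, were called higher than HSCs in both fibroblast groups, 4 of 8 on the list. On the log2 scale, Rgs5 (-2.03), Kcnj8 (-2.49) and Abcc9 (-5.42) were called lower in CCl4-fib, and Kcnj8 (-3.96) and Abcc9 (-3.28) in NASH-fib. Of all tested genes, 16.2% and 8.23% were called higher and 11.7% and 4.3% lower. The Notch3 call in CCl4-fib was lost without CCl4-fib replicate 1 (limma adjusted p = 0.0761). The Cnn1 call in NASH-fib was lost with the label number as a term (limma adjusted p = 0.0677). Myh11, the smooth muscle myosin heavy chain, had a mean of 88.8 ± 31.5 for HSCs, 4354 ± 4720 for CCl4-fib and 7855 ± 5627 for NASH-fib (SD, n = 3), and Actg2, a smooth muscle actin, 2.45 ± 1.94, 726.6 ± 286.3 and 1581 ± 1289.

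Between the fibroblast groups, 9 of 10 endothelial, 3 of 8 macrophage, 1 of 5 tested lymphocyte and 5 of 8 hepatocyte genes were called higher in NASH-fib. Of all tested genes 4.97% were. The 1 gene called on the lymphocyte list was Ptprc (3.30, limma adjusted p = 0.0233), which encodes CD45 and is not particular to lymphocytes. Its mean was 220.5 for HSCs, 19.7 for CCl4-fib and 231.1 for NASH-fib, although both fibroblast groups were sorted as CD45-. Lck, Cd2, Cd79a and Ms4a1 were not called. Macrophage genes summed to 4015 to 13638 for HSCs, 380.2 to 753.6 for CCl4-fib and 2739 to 5806 for NASH-fib, and hepatocyte genes to 22701 to 40225, 2487 to 4025 and 8836 to 29105. Most of the NASH-fib macrophage sum was Lyz2, with 2929, 2282 and 3945, beside 1472, 932.0 and 4598 in HSCs. The macrophage genes Clec4f, Cd68, Csf1r, Marco and C1qa were not called between the fibroblast groups. The 7 lymphocyte genes summed to at most 381.5, 51 and 430.5, with Cd3e and Cd3d at 0 in every CCl4-fib library. Ptprc alone held 314.5 of the 381.5 in HSCs replicate 2 and 311.6 of the 430.5 in NASH-fib replicate 3. The 4 Schwann cell genes summed to at most 51.6 in any library and Sox10 was at 0 in each.

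**Figure D5:**
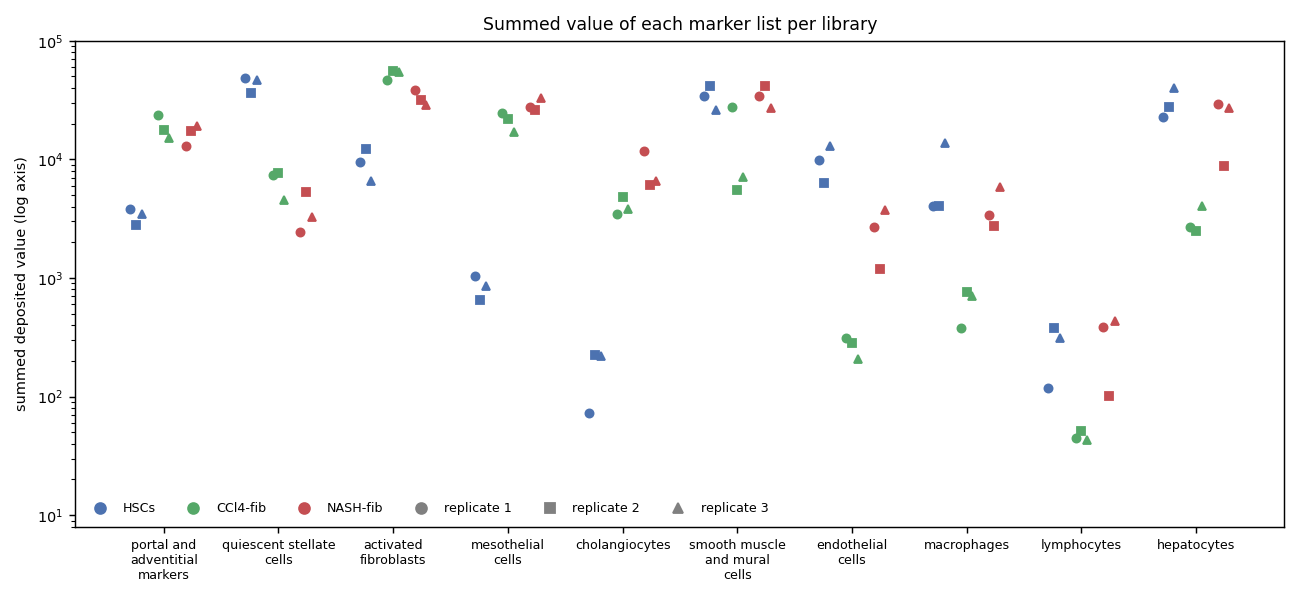
Summed normalised value on a log axis for the 10 markers and for the marker lists of other cell types, 1 point per library. The portal and adventitial, mesothelial and cholangiocyte sums are higher in all 6 fibroblast libraries than in HSCs, and the endothelial and macrophage sums are lowest in CCl4-fib.

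For each marker the 2 tested genes with the most similar profile over the 9 libraries were listed, by Pearson's r of log2 values. Since the 3 groups form separate clusters, r mainly reads the group means and is given as a description. For Thy1 they were Fmod (0.995) and Timp2 (0.989), for Dpt Vit and Acta2 (0.995 each), for Cd34 Gm16897 and Twsg1 (0.990 each) and for Col15a1 Thbs4 (0.990) and Junb (0.989). For Entpd2 they were Faap24 (0.988) and Ddr1 (0.986), for Clec3b Fam198a (0.993) and Xpnpep2 (0.987), for Gsn Crym (0.988) and Tppp3 (0.985), and for Pi16 Bcam (0.971) and Rasd1 (0.969). Ly6a was most alike to Ear10 (0.974) and Ly6i (0.952), the latter a gene that shares sequence with it, and Il33 to Cdkn3 (0.964) and Adamts3 (0.957). Fmod, Vit and Thbs4 encode extracellular matrix proteins, TIMP2 inhibits matrix metalloproteinases and Acta2 encodes the smooth muscle actin of myofibroblasts.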

How the data were processed

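RNA of 9 libraries (3 per group, each a pool of cells from 3 to 5 mice) was amplified and sequenced. Per the file header and methods, the authors aligned reads to mm10 with STAR and counted them on exons of RefSeq genes with HOMER, on either strand, with 1 entry per gene. The counting command also names a limit of 3 reads per position, whose effect on the values was not tested, and Dcn reached 8.75 reads per exonic base. CASAVA is named in the submitters' processing notes. The deposited values are a normalised signal per gene and library, made by a HOMER command that names DESeq2 and 10 libraries, 9 of which were used here. Every library sums to about 4471992, as scaling to a common total gives, and 0 further columns were left unused. Every value is a whole multiple of what 1 read is worth in its library, for 100% of values (within 0.006, or 0.006 per 1000 for larger values), so depth was recovered, 3071070 to 5634273 reads per library. The reads are amplified without molecular identifiers, so the exact intervals of the ratios of pooled rates cover counting error only.

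Genes were kept with edgeR 4.0.16 (filterByExpr, minimum count 10). Then limma 3.58.1 in R 4.3.3 was fitted on log2(value + 1) over the 3 groups with limma's trend option, and p-values were adjusted by Benjamini-Hochberg over 13651 genes. Fold changes on this scale understate low genes. The exact intervals of the ratios of pooled rates used scipy 1.17.1. The intervals of the log2 fold changes came from the limma fit, and the exact permutation test was computed in Python 3.11.15. The markers, the other gene lists and the tests were chosen with earlier results of these data known. The genes named were the 10 markers, the relatives, the 2 most alike genes of each marker and, in each comparison and direction, up to 4 called genes of the wider list. Npdc1 and Gm16897 were added on seeing that they overlap markers. Alternatives were edgeR's quasi-likelihood test and DESeq2 1.42.0 on recovered reads, other scalings, pseudocounts of 0.5 and 8, no filter, 2 groups only, a replicate block, the label number as a term and the omission of each library.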

Additional observations from a re-analysis of the deposited data

Results flagged for a closer look

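Entpd2 was the marker whose rise over HSCs differed between the 2 kinds of fibroblasts: the difference, which is the NASH-fib against CCl4-fib contrast of the limma fit, was -2.31 on the log2 scale (Benjamini-Hochberg adjusted p = 0.0212). It was lower in 3 of 3 NASH-fib libraries than in any CCl4-fib library. The call was lost with the label number as a term (adjusted p = 0.0793) and without CCl4-fib replicate 1 or 2 or NASH-fib replicate 1 or 3 (limma adjusted p of up to 0.102).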

How the results depend on the processing

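Of 570 values for the 10 markers under 19 alternatives, 542 kept their direction and side of the threshold, 7 lost the call, 8 gained it and 13 changed sign. In CCl4-fib against HSCs the 8 markers stayed called higher, with Il33 added in some settings. In NASH-fib against HSCs Pi16 (5.98, limma adjusted p = 0.0627) and Gsn (3.60, adjusted p = 0.0545) lost the call with the label number as a term. In NASH-fib against CCl4-fib, 2 markers were called lower with DESeq2, pseudocount 8 or the 2 groups alone, 0 with the label number as a term (Entpd2 -2.19, adjusted p = 0.0793), and 0 to 2 without 1 library. Over all alternatives the adjusted p of Entpd2 ran from 0.000169 to 0.102.

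Genes called numbered 3801, 1711 and 1451 in CCl4-fib against HSCs, NASH-fib against HSCs and NASH-fib against CCl4-fib. With the label number as a term they numbered 2476, 668 and 593, with 1 library left out 2446 to 4872, 1258 to 1993 and 212 to 1804, and in NASH-fib against CCl4-fib 2679 with DESeq2. In that last comparison, with fewer samples, the omission of CCl4-fib replicates 1, 2 and 3 left 532, 212 and 695 calls, and that of NASH-fib replicates 1 and 3 left 684 and 269. Of its calls 46.7% were higher, against 58.8% with edgeR and 56.7% with DESeq2 on recovered reads, 58.0% with the label number as a term and 63.3% and 66.0% with CCl4-fib replicate 1 or 2 omitted. Its median over all genes moved from -0.11 to 0.07 with TMM scaling, 0.14 with edgeR and 0.12 with DESeq2. In NASH-fib against HSCs the share higher was 65.7%, and 82.2% with the label number as a term.

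Replicate numbers did not pair the samples (r of deviations from -0.473 to 0.514 over 9 pairs, 1 of them over 0.1). With a replicate block, 3312, 1487 and 929 genes were called in the order above, with 8 markers higher, 8 higher and 1 lower.

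Signs turned only for values that were not called. For Ly6a in CCl4-fib against HSCs the log2 fold change was 0.36 with the label number as a term and ran from -0.67 to 0.17 over the omissions of 1 library, positive (0.02 and 0.17) when HSCs replicate 1 or CCl4-fib replicate 3 was left out. For Il33 in NASH-fib against HSCs it was -0.02 with the label number as a term and from -0.31 to 0.36 over the omissions, negative for NASH-fib replicate 1 (-0.31), HSCs replicate 3 (-0.24) and NASH-fib replicate 3 (-0.02). In NASH-fib against CCl4-fib, Cd34 was 0.09 with edgeR, 0.06 with DESeq2 and -0.44 to 0.26 over the omissions, turning at NASH-fib replicate 1. Dpt ran from -0.02 (NASH-fib replicate 3 omitted) to 0.38, Pi16 from -1.98 to 0.13 (CCl4-fib replicate 1 omitted) and Clec3b from -0.01 (CCl4-fib replicate 3 omitted) to 1.49. The cause of these changes was not tested. Among the other named genes, 119 of 1463 values lost the call and 0 changed sign. Depth limits Thy1, Entpd2, Pi16, Clec3b and Col15a1 in HSCs, where each had at most 13 reads.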
